A study of Mus musculus with 20 samples.

Results

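The comparison described here was BMP4 at 300 ng/ml against BMP4 at 100 ng/ml in C2C12 cells, a mouse myoblast line, and it rested on 4 of the 20 Affymetrix gene arrays of the series. The members were chosen by their treatment labels alone: 2 arrays at 300 ng/ml and 2 at 100 ng/ml, each pair of doses set side by side within a run of consecutive sample title numbers (10 to 17, run 1, and 18 to 29, run 2). Values are also given for 2 arrays of BMP4 at 10 ng/ml and 5 control arrays, of which 2 were untreated and 3 had received methanol. A further 3 arrays with values here had received compound 942 (6.25, 12.5 and 25 µM). The fit took in all 20 arrays, including those of compounds 178 and 181 at the same doses. Recombinant BMP4 was the only agent in the BMP4 wells, and all cells were of the same line, kept below confluence and treated in medium with 5% serum. The labels give no time between treatment and RNA extraction, and 100 ng/ml appears in the sample titles but not in the treatment protocol. RNA of the 300 ng/ml array of run 1 was labelled with the Affyexpress method. That of the other 3 arrays at 300 or 100 ng/ml was labelled with the standard Affymetrix method. In the run 1 pair labelling and dose therefore cannot be told apart. Nothing in the labels ties the arrays of a dose to cultures of their own, so p-values reflect only how far these arrays spread, which may be technical.

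BMP4 is a secreted ligand of the TGF-beta superfamily that binds paired type I and type II serine/threonine kinase receptors. The receptors phosphorylate SMAD1, SMAD5 and SMAD9, which enter the nucleus with SMAD4 and activate targets such as the Id genes and the inhibitory Smad6 and Smad7. In C2C12 cells BMP signalling is known to block the myogenic programme of Myod1 and Myog and to induce osteoblast genes such as Sp7 and Alpl.

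Values are log2 signals, a difference of 1 being a doubling, and "the step" below is the level at 300 ng/ml minus that at 100 ng/ml, averaged over both runs. The step was small for nearly all genes. Among the 22180 genes tested with limma, 3 were called higher at 300 ng/ml at a Benjamini-Hochberg adjusted p under 0.05 (0.0135% of genes) and 0 were called lower (0%), the smallest adjusted p among lower genes being 0.0625. The median step over all genes was -0.0016. At an unadjusted p under 0.05, 588 genes were higher (2.65%) and 906 lower (4.08%), 1494 in all where 1109 would fall under that threshold by chance. For comparison, the preceding step, 100 minus 10 ng/ml, had 563 genes called higher (2.54%) and 848 called lower (3.82%). Both steps share the 100 ng/ml arrays, and the fold increase in dose is larger from 10 to 100 than from 100 to 300 ng/ml.

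The promoters of 4 genes described below are printed first, from RefSeq on build GRCm38.p6. Each is given as the 250 bases upstream of the annotated start on the gene's own strand, 5′ to 3′. Gja3 and Alpl had 2 annotated starts each, of which only the most upstream is shown and described. Adgrf4 and Gja3 are shown because their step was called, Alpl because it is the classic osteoblast readout of BMP in this line, and Acta1 because it had the largest high-dose loss among the named genes that were lower in both runs. Capitals mark CAGCTG, an E-box form bound by MyoD, and GGCGCC, a GC-rich element bound by SMAD1 and SMAD5; TGTGGT, a core bound by RUNX factors, was also searched and had no match in these 4 windows.
Adgrf4, chr17:42692285-42692534, minus strand: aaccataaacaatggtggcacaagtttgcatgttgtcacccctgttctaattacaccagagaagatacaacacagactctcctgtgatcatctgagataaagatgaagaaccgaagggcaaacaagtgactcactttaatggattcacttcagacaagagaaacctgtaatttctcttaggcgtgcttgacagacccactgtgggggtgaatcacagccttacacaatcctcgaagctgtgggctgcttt
Gja3, chr14:57058031-57058280, minus strand: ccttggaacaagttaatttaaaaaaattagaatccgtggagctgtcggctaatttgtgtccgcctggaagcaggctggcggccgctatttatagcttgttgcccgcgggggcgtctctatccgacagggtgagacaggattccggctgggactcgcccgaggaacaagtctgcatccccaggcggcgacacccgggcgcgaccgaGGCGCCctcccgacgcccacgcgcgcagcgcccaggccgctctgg
Alpl, chr4:137796385-137796634, minus strand: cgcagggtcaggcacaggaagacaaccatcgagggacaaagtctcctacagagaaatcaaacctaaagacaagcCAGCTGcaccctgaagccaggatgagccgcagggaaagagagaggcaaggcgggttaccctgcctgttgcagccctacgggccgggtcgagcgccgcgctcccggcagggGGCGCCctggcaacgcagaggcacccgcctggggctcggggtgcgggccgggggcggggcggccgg
Acta1, chr8:123894776-123895025, minus strand: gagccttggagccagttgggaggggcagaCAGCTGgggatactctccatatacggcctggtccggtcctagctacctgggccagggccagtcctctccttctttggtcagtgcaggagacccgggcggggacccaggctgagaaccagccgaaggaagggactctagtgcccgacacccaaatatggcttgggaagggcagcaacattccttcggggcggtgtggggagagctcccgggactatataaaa
Both strands were searched for each motif. CAGCTG occurred in 13% of the 32851 RefSeq promoter windows of this length, GGCGCC in 9.59% and TGTGGT in 14.05%. The window of Alpl held CAGCTG with its first base at position -176 and GGCGCC at -66, that of Gja3 held GGCGCC at -45, that of Acta1 held CAGCTG at -221, and that of Adgrf4 held none of the 3. These are matches of letters, not measured binding sites.

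Adgrf4, an adhesion G protein-coupled receptor, rose most. Its signal was 6.17 and 6.25 in the 300 ng/ml arrays of runs 1 and 2, against 4.62 and 3.83 in the 100 ng/ml arrays. Both 300 ng/ml arrays therefore lay above both 100 ng/ml arrays, and the 100 ng/ml array of run 2 lay within the range of the 5 control arrays, 3.73 to 4.27. The step was 1.98 (SE 0.24, 95% interval 1.47 to 2.50, adjusted p = 0.0183), with 1.55 within run 1 and 2.42 within run 2. At 10 ng/ml its signal was 3.52 and 3.81, so it lay above the highest control in 1 array at 100 ng/ml and in both at 300 ng/ml, and below the lowest control in 1 array at 10 ng/ml.

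Gja3 encodes a connexin, a gap junction protein best known from the lens. It stood at 7.19 and 7.58 at 300 ng/ml, against 6.10 and 5.63 at 100 ng/ml, and rose by 1.52 (SE 0.18, interval 1.13 to 1.92, adjusted p = 0.0183). The groups did not overlap, and all 4 arrays lay above the highest control (5.17). Its 100 minus 10 ng/ml step was 0.40, so most of its high-dose signal appeared in the last step.

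Lum encodes lumican, a small leucine-rich proteoglycan of collagenous matrix. Its signal was 6.52 and 5.98 at 300 ng/ml, against 4.92 and 3.74 at 100 ng/ml. The control arrays lay between 3.19 and 3.57, below every one of these 4 arrays. It rose by 1.92 (SE 0.25, interval 1.37 to 2.46, adjusted p = 0.0311), by 1.60 in run 1 and 2.23 in run 2. Array medians over all probe sets lay between 4.93 and 5.05, so Lum and Adgrf4 were below the middle of the signal range at 100 ng/ml. No promoter of Lum is shown.

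**Figure D1:**
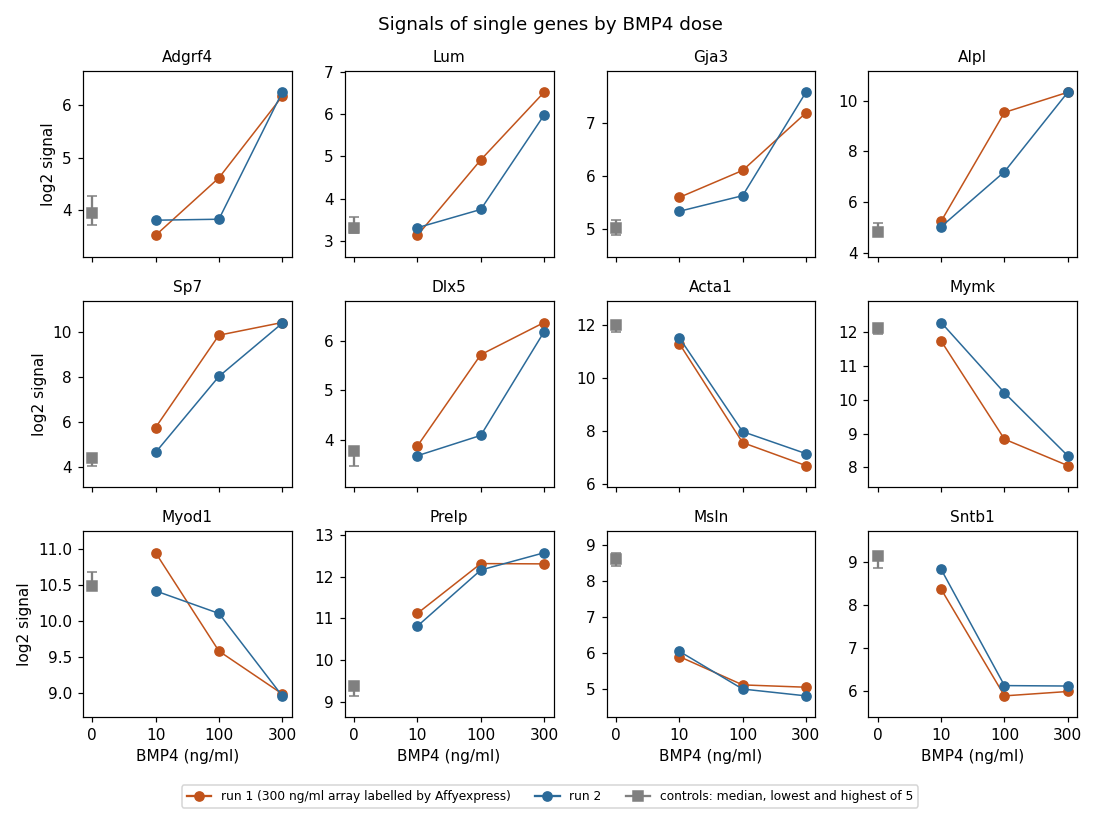
Log2 signal of single genes (y axis) in each array against BMP4 dose in ng/ml (x axis, low to high), with 1 line for each run and the controls as the median, lowest and highest of 5 arrays. In Adgrf4, Lum and Gja3 both 300 ng/ml arrays lie above both 100 ng/ml arrays, whereas Alpl and Sp7 have close 300 ng/ml arrays and 100 ng/ml arrays that lie apart.

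Under the other settings tried the steps of these 3 genes stayed between 1.19 and 2.48, while their adjusted p did not always stay under 0.05. With a labelling term, which leaves run 2 alone to give the 300 ng/ml level, the steps were 2.02 for Adgrf4, 1.81 for Lum and 1.85 for Gja3, with adjusted p of 0.0844, 0.126 and 0.0078. Without the trend on signal none of the 3 was called at unchanged steps (adjusted p 0.0952 for Adgrf4 and Gja3 and 0.156 for Lum). Lum was also not called without the run term (adjusted p = 0.1135) or without any one of the 3 methanol arrays, and Adgrf4 and Gja3 were not called without methanol replicate 1. In the 3 Affyexpress-labelled arrays of compound 942 (6.25, 12.5 and 25 µM) the signals were 3.56, 3.88 and 3.95 for Adgrf4, 3.53, 3.40 and 3.01 for Lum and 4.75, 4.97 and 5.05 for Gja3, where compound and labelling cannot be told apart.

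Further genes were higher at 300 ng/ml in both runs but missed the threshold. Ccdc74a, which encodes a coiled-coil protein, stood at 7.58 and 7.64 at 300 ng/ml, against 6.47 and 6.09 at 100 ng/ml (step 1.33, SE 0.19, adjusted p = 0.0625). Prss35, a serine protease family member, stood at 7.75 and 8.23 at 300 ng/ml, against 7.0 and 5.76 at 100 ng/ml, and its 100 minus 10 ng/ml step was 2.02. Krt31, a hair keratin, was 5.94 and 6.99 at 300 ng/ml, against 5.03 and 4.62 at 100 ng/ml, with run 2 giving most of its difference (0.91 in run 1, 2.37 in run 2). The transcription factor Sp6, a relative of Sp7, had 7.97 and 7.91, against 7.25 and 6.35 (step 1.14, adjusted p = 0.0625). The other named genes of this kind were Atp1b3 (a subunit of the sodium-potassium ATPase), Sppl2a (an intramembrane protease), Spata13 (a guanine nucleotide exchange factor), Tnfrsf23 (a TNF receptor family member) and F13a1 (coagulation factor XIII), with steps between 0.46 and 0.88 and adjusted p between 0.0625 and 0.108. Tnfrsf23 was the 1 gene of these whose mean over both high doses lay below that of the controls (-0.33): it stood at 9.66 and 9.57 at 300 ng/ml, against 9.24 and 9.07 at 100 ng/ml, and the 300 ng/ml arrays lay within the range of the controls (9.54 to 9.87). Spata13 lay below the lowest control (5.21) in both 100 ng/ml arrays (5.00 and 5.01) and above the highest (5.36) in both 300 ng/ml arrays (5.79 and 5.99).

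Among genes lower at 300 ng/ml in both runs none passed, and the smallest adjusted p (0.0625) was shared by Psat1, an enzyme of serine synthesis, and Mt2, a metallothionein. Psat1 stood at 7.87 and 8.05 at 300 ng/ml, against 8.32 and 8.81 at 100 ng/ml (step -0.60). Mt2 stood at 9.19 and 8.79, against 9.57 and 9.62 (step -0.60). Slc7a5, the large neutral amino acid transporter, was the most even across runs at 10.52 and 10.62, against 10.92 and 11.02, with a step of -0.40 in each run. The 300 ng/ml arrays of Slc7a5 lay nearer to the controls (10.40 to 10.52) than the 100 ng/ml arrays did. Muscle genes in this group were Acta1 (skeletal alpha-actin, 6.70 and 7.15, against 7.56 and 7.98, step -0.85) and Mrln (myoregulin, an inhibitor of the sarcoplasmic calcium pump, 4.28 and 3.86, against 4.92 and 5.24, step -1.01). The transcriptional regulators Pknox2, Bhlhe41, Lbh and Osr1 had steps of -0.87, -0.87, -0.63 and -1.09, and the kinase gene Plk2, the lipase inhibitor gene Angptl4 and Hid1 had steps of -0.74, -0.69 and -0.67, all with adjusted p between 0.0859 and 0.0996.

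**Figure D2:**
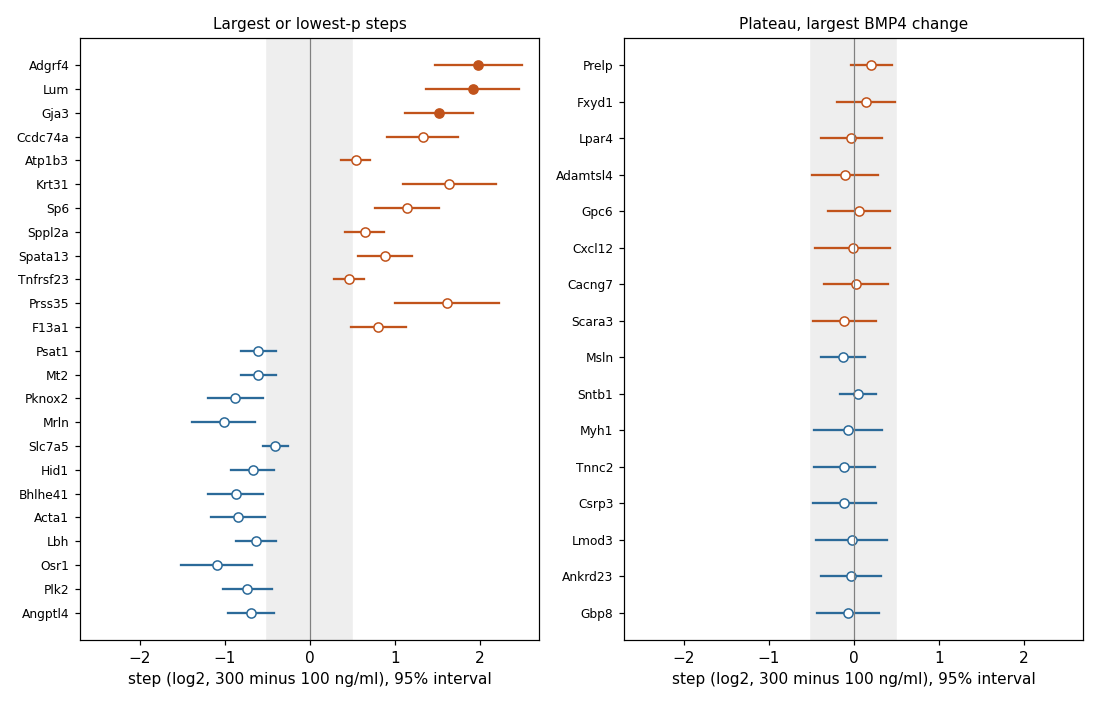
Step from 100 to 300 ng/ml on the log2 scale (x axis) for the named genes (y axis), with the 95% interval of the fit as a line, filled points for the 3 called genes and open points for the rest. The 3 filled points have lower bounds above 1, and the plateau genes have intervals inside the shaded band from -0.5 to 0.5.

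To separate genes that had stopped moving from genes that were only poorly measured, responders were taken from a different contrast. It was the mean of both high doses minus that of the controls, called at adjusted p under 0.05 and at least 1 in size. In the control mean the untreated and the methanol group had equal weight. This gave 335 raised genes (1.51% of genes) and 456 lowered genes (2.06%). Both doses enter this contrast, so a gene that moved mainly at 300 ng/ml could qualify. Adgrf4 did so, at 0.25 above the controls at 100 ng/ml and 2.23 at 300 ng/ml. A responder was put on a plateau only when the 95% interval of its step lay inside -0.5 to 0.5. Of the raised genes 79 (23.6%) were on a plateau by that rule, 3 moved onward, 253 stayed undecided and 0 turned back. Of the lowered genes 116 (25.4%) were on a plateau, 340 stayed undecided, and 0 moved onward or turned back. Undecided genes were not flat in the median. The median step of the raised ones was 0.39 (0.17 in run 1 and 0.66 in run 2), against 0.06 for plateau genes. For lowered genes it was -0.38 (-0.18 and -0.58), against -0.08. The step itself sets these classes. Over all genes the interval lay inside the band for 66.9%, most of them genes that BMP4 did not move. At the edge of the band, Ubtd1, Sqor and Hgh1 were just inside (interval bounds -0.495, 0.4965 and -0.4991) and Chac1, Sox11 and Ccn2 just outside (-0.5011, -0.5019 and 0.502).

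Among the raised plateau genes, Prelp, a leucine-rich proteoglycan that anchors basement membranes to connective tissue, had the largest high-dose change (3.01). It stood at 12.31 and 12.58 at 300 ng/ml, against 12.32 and 12.16 at 100 ng/ml, while the controls lay between 9.14 and 9.45. Its step was 0.20 with an interval of -0.04 to 0.44. Fxyd1 (phospholemman, a regulator of the sodium pump) had 9.32 and 8.99, against 9.39 and 8.63. Cxcl12, a chemokine of marrow stroma, had 9.59 and 9.68, against 9.85 and 9.45 (step -0.01, interval -0.45 to 0.42). In all 3 the arrays of both doses overlapped. The lysophosphatidic acid receptor gene Lpar4, the matrix gene Adamtsl4, the glypican gene Gpc6, Cacng7 (a calcium channel auxiliary subunit) and Scara3 had steps between -0.11 and 0.06 after high-dose changes between 1.56 and 1.80. Ogn (osteoglycin), a further small leucine-rich proteoglycan on a plateau, stood at 12.03 and 12.02, against 11.86 and 12.15.

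Among the lowered plateau genes, Msln (mesothelin, a cell surface glycoprotein) had the largest change, -3.60. It stood at 5.05 and 4.81 at 300 ng/ml, against 5.12 and 5.00 at 100 ng/ml, while the controls were at 8.42 to 8.78. Sntb1, a syntrophin of the dystrophin complex, was at 5.99 and 6.12, against 5.89 and 6.13 (step 0.05, interval -0.17 to 0.26), below controls of 8.86 to 9.21. The muscle genes Myh1 (fast myosin heavy chain), Tnnc2 (fast troponin C), Csrp3 (muscle LIM protein), Lmod3 (leiomodin, an actin filament nucleator) and Ankrd23 had steps between -0.11 and -0.02, and the guanylate-binding protein gene Gbp8 had -0.07. Of the 116 lowered plateau genes 16 had a mean signal at 100 ng/ml under 5, against 67 of the 340 undecided ones, and the part of such low signals in a flat step was not tested.

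Taken as a share of the high-dose change, the change at 10 ng/ml was larger in plateau genes than in undecided ones. At 10 ng/ml the median raised plateau gene already had 49.3% of its high-dose change, against 26.5% for the median undecided raised gene, and the lowered classes had 45.5% and 26.4%. The difference at 10 ng/ml against controls was called in the same direction for 55 of 79 raised plateau genes, against 86 of 253 undecided ones (background 1.95% of all genes higher), and for 75 of 116 lowered plateau genes, against 132 of 340 (2.18% lower). Plateau genes also had smaller high-dose changes (median 1.19, against 1.58 for undecided raised genes) and smaller standard errors of the step (median 0.144, against 0.199), and the narrow interval that the rule asks for selects the latter. A smaller standard error also makes a call at 10 ng/ml more likely. Neither the shares nor the call counts therefore show an earlier response. All 195 plateau genes had both within-run steps inside the band. These are descriptions of classes, without a test between them.

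**Figure D3:**
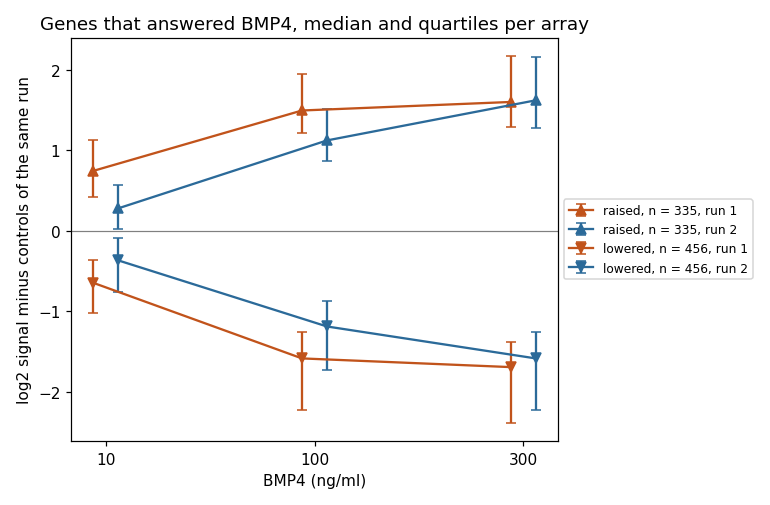
Change from the controls of the same run on the log2 scale (y axis) for the raised and lowered responders at 10, 100 and 300 ng/ml BMP4 (x axis, low to high), as the median with the quartiles for each array. The 300 ng/ml arrays of both runs lie close together, while at 10 and 100 ng/ml run 1 lies further from the controls than run 2.

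Over the responders the 100 ng/ml arrays of the runs lay further apart than the 300 ng/ml arrays. Relative to the controls of their own run, the raised genes had a median change of 0.74, 1.49 and 1.60 with rising dose (10, 100 and 300 ng/ml) in run 1, and of 0.28, 1.12 and 1.62 in run 2. For the lowered genes the medians were -0.65, -1.59 and -1.69 in run 1 and -0.37, -1.19 and -1.59 in run 2. The 300 ng/ml levels of the runs were thus close, and the run 2 arrays at 10 and 100 ng/ml lay nearer to the controls than those of run 1. Per gene, the median absolute gap between the 300 ng/ml arrays was 0.20 for raised genes, against 0.43 between the 100 ng/ml arrays, and 0.25, against 0.49, for lowered genes. Over all genes the gaps were alike at 0.17 each.

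The step, taken in the direction of the response, was smaller in run 1 than in run 2 for 275 of the 335 raised genes and 350 of the 456 lowered genes. Its median over the raised genes was 0.31 (0.12 in run 1 and 0.49 in run 2) and over the lowered genes -0.26 (-0.12 and -0.39), beside -0.0016 over all genes. Both 300 ng/ml arrays lay above both 100 ng/ml arrays for 168 of the 335 raised genes (14.3% of all genes) and below for 21, and they lay below for 163 of the 456 lowered genes (14.9% of all genes) and above for 18. The step was above 0 in both runs for 219 of the raised genes (24.4% of all genes) and below 0 in both for 268 of the lowered genes (26.2%). The 300 ng/ml arrays also helped to pick the responders and their direction, so these shares may partly follow from that choice. At an unadjusted p under 0.05, 140 of the raised genes were higher and 10 lower, and 179 of the lowered genes were lower and 9 higher. Over all genes 2.65% were higher and 4.08% lower. A labelling term compared the gap between the 300 ng/ml arrays with the run difference fitted over the other groups. No gene was called for it (0% by limma at adjusted p under 0.05), and 855 had an unadjusted p under 0.05 (3.85%). This term is not the difference between the within-run steps, which was not tested. In it, labelling and other features of the 300 ng/ml array of run 1 cannot be told apart. The 3 Affyexpress-labelled arrays of compound 942 gave medians of 0.01, -0.03 and -0.03 over the raised genes and -0.01, -0.15 and -0.25 over the lowered genes at 6.25, 12.5 and 25 µM.

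Single arrays decided the counts. Without the 100 ng/ml array of run 1, the counts were 119 genes called higher (0.537%) and 293 called lower (1.32%), and 63 raised and 104 lowered responders moved onward, 3 turned back and 62 were on a plateau, 58 of them among the 195. Without the 100 ng/ml array of run 2 no gene was called, and 230 genes were on a plateau, 108 of them among the 195. Without the 300 ng/ml array of run 2 no gene was called and 97 genes were on a plateau, and without that of run 1 the counts were 5 higher, 4 lower and 80 on a plateau.

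**Figure D4:**
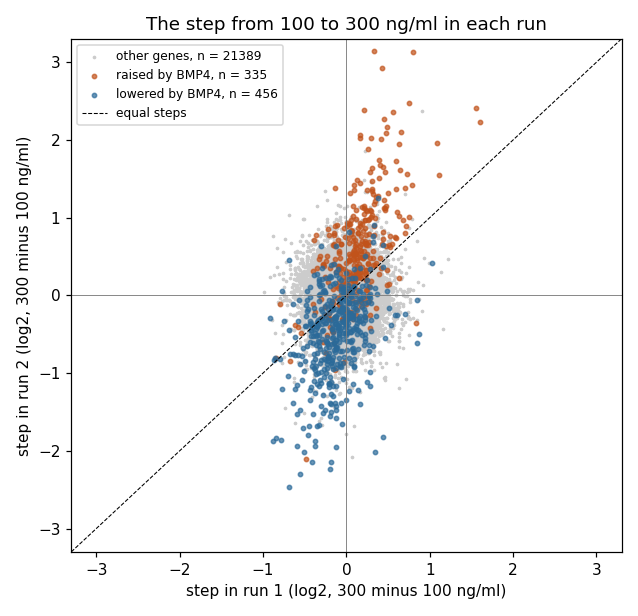
Step from 100 to 300 ng/ml within run 1 (x axis) against that within run 2 (y axis), both on the log2 scale, for raised responders, lowered responders and the remaining genes. Raised responders spread to the upper side and lowered responders to the lower side along the run 2 axis, and the 3 called genes (unmarked) are past 1 on both axes.

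Across the genes tested, 39 had a step past 0.5 in both runs upward and 47 downward, and 4 were past 1 in both runs upward and 0 downward. The within-run steps correlated with Pearson's r = 0.115 over the 22180 genes, 0.60 over the raised and 0.35 over the lowered responders, as a description across genes, which are not independent replicates. The SD of the step over all genes was 0.194 in run 1 and 0.305 in run 2.

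Direct BMP targets and feedback genes came next in the order of roles, and 0 of the 25 measured passed the test in either direction. Their median step was 0.28 (0.06 in run 1 and 0.46 in run 2, and between 0.09 without the 300 ng/ml array of run 2 and 0.47 without the 100 ng/ml array of run 1), with 10 higher and 1 lower at an unadjusted p under 0.05 (2.65% and 4.08% of all genes). Id1, the inhibitor of bHLH factors that is the standard early readout of SMAD signalling, stood at 8.46 and 8.24 at 300 ng/ml, against 8.71 and 7.80 at 100 ng/ml, with overlapping groups, and its 10 ng/ml arrays lay furthest apart at 9.04 and 7.04. The feedback inhibitor Smad6 had 9.43 and 9.12, against 9.08 and 7.86 (step 0.81, adjusted p = 0.475), and Smad7 had 8.81 and 8.91, against 8.72 and 7.50. Bambi, a decoy receptor, had 8.03 and 7.95, against 7.57 and 6.85 (step 0.78, interval 0.44 to 1.11, adjusted p = 0.14). The homeobox gene Dlx5 had 6.37 and 6.18, against 5.72 and 4.08 (step 1.37, adjusted p = 0.185). Grem1, which encodes a secreted BMP antagonist, was the 1 gene lower at an unadjusted p under 0.05, at 6.74 and 6.97, against 7.26 and 7.64. For ligands, receptors, SMADs and secreted antagonists outside that list the median step was -0.03 over 25 genes, with 0 called, 2 higher and 3 lower at an unadjusted p under 0.05 (2.65% and 4.08% of all genes). Bmp4 itself stood at 8.16 and 7.80, against 8.30 and 8.83.

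Of 21 measured osteoblast genes 0 passed, 10 were higher and 2 lower at an unadjusted p under 0.05 (2.65% and 4.08% of all genes), and the median step was 0.31 (0.16 without the 100 ng/ml array of run 2). Alpl, the alkaline phosphatase of mineralising bone, whose promoter is printed above, was at 10.33 and 10.33 at 300 ng/ml, against 9.53 and 7.19 at 100 ng/ml. The 300 ng/ml arrays were equal to 2 decimals, and the 100 ng/ml arrays differed by more than the whole step of run 1 (step 1.97, SE 0.43, adjusted p = 0.185). Sp7, the osteoblast transcription factor osterix, showed the same layout with 10.43 and 10.40, against 9.87 and 8.03 (step 1.47, adjusted p = 0.264). Bglap, which encodes osteocalcin, had 7.46 and 8.08, against 6.81 and 6.46 (step 1.13, SE 0.21, adjusted p = 0.11), and Tnfrsf11b, the RANKL decoy osteoprotegerin, had 7.05 and 7.95, against 6.58 and 5.86. Panx3, a channel gene of bone cells, had 9.95 and 10.27, against 9.69 and 8.38, having stood at 4.59 and 4.33 at 10 ng/ml. Phex, an endopeptidase gene of phosphate balance, was lower at 6.12 and 6.55, against 6.96 and 7.36 (step -0.82, adjusted p = 0.654), and its highest array was at 10 ng/ml (8.15). None of the 11 osteoblast responders met the plateau rule. Without the 100 ng/ml array of run 1, 10 of the 21 osteoblast genes and 5 of the 25 BMP targets were called higher, where 0.537% of all genes were. Without the 300 ng/ml array of run 1 the counts were 2 and 0, and without either of the other 2 arrays 0 and 0.

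The small leucine-rich proteoglycans, which bind collagen fibrils, held 1 called gene of 13, Lum (0.0135% of all genes were called higher), and 2 plateau genes. None of the 13 had a step below 0 (lowest 0.0049, median 0.16), but that of Prelp was -0.0237 without the 300 ng/ml array of run 2. The step was above 0 in both runs for 8 (24.4% of all genes). Both 300 ng/ml arrays lay above both 100 ng/ml arrays for 4 and below for 0 (14.3% and 14.9% of all genes). At an unadjusted p under 0.05, 3 were higher and 0 lower (2.65% and 4.08% of all genes). Fmod (fibromodulin) was at 11.45 and 11.44, against 11.54 and 10.90, and Aspn (asporin) at 10.98 and 10.66, against 10.79 and 9.96. Dcn (decorin) was at 11.94 and 12.09, against 11.55 and 11.62 (step 0.44, adjusted p = 0.264). The wider matrix list of 37 genes had a median step of 0.01, with 6 higher and 6 lower at an unadjusted p under 0.05 (2.65% and 4.08% of all genes).

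Muscle regulators and fusion genes had a median step of -0.21 (-0.10 in run 1 and -0.35 in run 2), which was -0.05 without the 100 ng/ml array of run 2 and -0.35 without that of run 1. Of 26 myogenic genes 0 passed, and 0 were higher and 8 lower at an unadjusted p under 0.05 (2.65% and 4.08% of all genes). Both 300 ng/ml arrays lay below both 100 ng/ml arrays for 11 and above for 0 (14.9% and 14.3% of all genes). Myod1, the myogenic master regulator, was at 8.98 and 8.95 at 300 ng/ml, against 9.58 and 10.10 at 100 ng/ml (step -0.87, SE 0.17, adjusted p = 0.118). Myog, which drives terminal differentiation, was at 6.64 and 5.94, against 6.83 and 8.17, so most of its difference came from run 2 (-0.19 in run 1 and -2.23 in run 2). Mymk (myomaker, needed for myoblast fusion) was at 8.05 and 8.34, against 8.84 and 10.21 (step -1.32, adjusted p = 0.133).

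Of 52 sarcomere genes 0 passed, 12 were lower and 1 higher at an unadjusted p under 0.05 (4.08% and 2.65% of all genes), with a median step of -0.08 (-0.02 without the 100 ng/ml array of run 2 and -0.18 without that of run 1) after a median high-dose change of -1.85. Acta1, whose promoter is printed above, and Mylpf (fast regulatory myosin light chain, 4.99 and 5.43, against 5.85 and 6.24) differed almost equally in both runs. Ttn (titin) was at 5.06 and 5.88, against 5.91 and 7.71. Myh3 (embryonic myosin heavy chain) was at 4.72 and 4.08, against 4.25 and 4.62, with overlapping groups, while the controls stood at 8.98 to 9.71. Xirp1, an actin-binding protein gene of muscle, was the 1 gene higher at an unadjusted p under 0.05, with 5.28 and 5.74, against 4.97 and 4.98. Of 28 excitation and neuromuscular genes 0 passed and 6 were lower at an unadjusted p under 0.05 (4.08% of all genes), among them the acetylcholine receptor subunits Chrng (5.43 and 4.71, against 5.61 and 6.85) and Chrnb1 (5.70 and 6.10, against 6.29 and 7.62).

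Genes of S phase and mitosis leaned to one side, although 0 of the 35 measured passed the test. At 300 ng/ml 31 of the 35 were lower at an unadjusted p under 0.05 and 0 higher, 29 were lower in both runs, and both 300 ng/ml arrays lay below both 100 ng/ml arrays for 29, where 4.08%, 26.2% and 14.9% of all genes did so. The median step was -0.39 (-0.11 in run 1 and -0.69 in run 2), and it was -0.21 without the 100 ng/ml array of run 2 or the 300 ng/ml array of run 2. Aurkb, a mitotic kinase, was at 9.19 and 8.96 at 300 ng/ml, against 9.47 and 9.76 at 100 ng/ml (step -0.54, adjusted p = 0.242). Kif23, a kinesin of cytokinesis, was at 7.95 and 7.84, against 8.22 and 8.83, and Mki67, the proliferation marker, at 9.83 and 9.61, against 9.91 and 10.32. Against the controls the median change of the list with rising dose (10, 100 and 300 ng/ml) was 0.26, 0.26 and -0.07. Ccnd1 (cyclin D1) was at 8.67 and 8.49, against 9.05 and 9.53 (step -0.71, adjusted p = 0.185). Genes of cell cycle exit had a median step of -0.05 over 13 genes. Without the 100 ng/ml array of run 1, 9 of the 35 S-phase and mitosis genes were called lower, where 1.32% of all genes were, and without any one of the other 3 arrays at these doses 0 were.

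**Figure D5:**
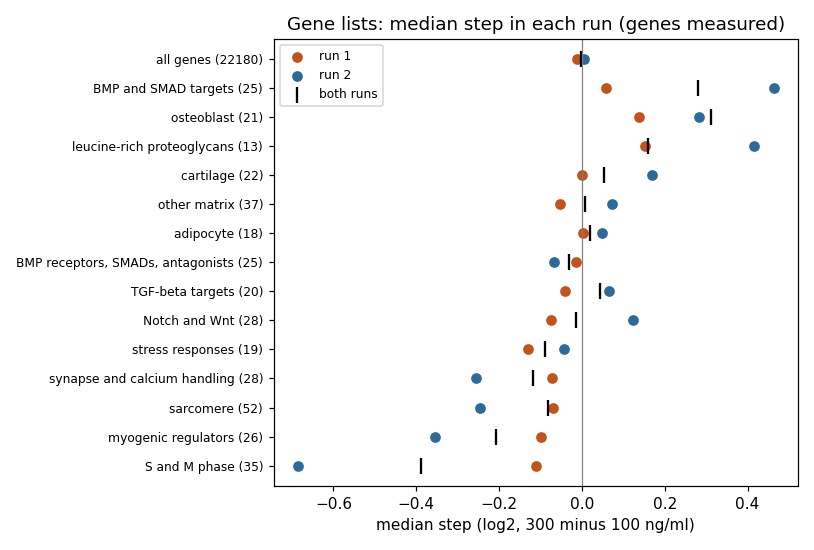
Median step, 300 minus 100 ng/ml, on the log2 scale (x axis) over each gene list (y axis, with the number of genes measured) and over all genes, in run 1, in run 2 and as the mean of both runs. The S and M phase list is furthest below 0 in run 2 (-0.69), and BMP targets and osteoblast genes have medians above 0 in both runs.

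The remaining lists lay near 0. Cartilage genes had a median step of 0.05 over 22 genes, with Col2a1 (type II collagen) at 8.17 and 8.01, against 7.73 and 6.36. Adipocyte genes had 0.02 over 18, with Fabp4 (a fatty acid carrier) at 7.54 and 7.81, against 7.24 and 5.79. TGF-beta targets had 0.04 over 20, Notch and Wnt genes -0.01 over 28 and stress genes -0.09 over 19. In the Notch and Wnt list the Notch target Hey1 was at 10.97 and 10.71, against 10.74 and 8.84, with overlapping groups.

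The mean signal of the 7 measured myoblast markers was 9.0 and 9.01 at 300 ng/ml, against 9.26 and 9.77 at 100 ng/ml, and 10.49 to 10.53 in the 5 controls, so the labelled cell type was seen in every one of these arrays. The 7 measured myoblast markers had a median step of -0.42, with 0 called and 5 lower at an unadjusted p under 0.05 (4.08% of all genes), and the part of such a shift in the steps of other genes was not tested. The endothelial, macrophage and epithelial markers had 0 called genes and median steps of 0.06, 0.0015 and -0.05 over 10, 10 and 9 genes, and the mean signals of these 3 lists lay between 4.32 and 5.50 at 300 ng/ml and between 4.35 and 5.56 at 100 ng/ml. Among them Krt14, a keratin of basal epithelium, was highest at 9.78 and 9.88, against 9.61 and 8.43, with 4.99 to 5.40 in controls. In RNA of a whole well, fewer cells of a type and less RNA per cell cannot be told apart.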

How the data were processed

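The authors' deposited values are on the log2 scale, with 1 value for each array and probe set, and came from RMA in Partek 6.5 per the submitters' processing notes. Per the labels' protocols some RNA was labelled by the Affyexpress method and 3 samples by both methods for batch correction; whether the deposited log2 values were corrected is not stated. Of 41345 probe sets, 23521 carried 1 gene symbol in the platform annotation, 1814 several and 16010 none; the brightest probe set stood for each of 22180 genes.

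With limma 3.58.1 in R 4.3.3, 1 mean per treatment and dose plus a term for the title-number run was fitted to all 20 arrays (5 residual degrees of freedom, median prior 7.84, median SE of the step 0.154), with an eBayes trend on signal. The single arrays of compound doses were assumed to vary like the other groups, but each was fitted by a mean of its own. They therefore added nothing to the estimate of spread, which came from the control and BMP4 arrays. The runs come from title numbers, which the labels do not call batches; deviations of the runs from their group means correlated at r = 0.18 between 300 and 100 ng/ml over genes. The small number of arrays limits the precision. The fit was tested on simulated data. Other settings, given in the closing section, changed the block, labelling term, normalization, filter, probe set, band or arrays. Named genes were the 12 called with the largest step in each direction with the same sign in both runs, filled by smallest p where fewer were called, and the 8 raised and 8 lowered plateau genes with the largest change; list members could be named whether or not they passed. Members, lists and rules were chosen with earlier results of these data known. Promoters came from RefSeq (GRCm38.p6); 27 of 40 named genes matched.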

Additional observations from a re-analysis of the deposited data

How the results depend on the processing

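The genes called higher (3) and lower (0) became 5 and 4 with a labelling term, with 2 lowered onward genes and 29 raised and 50 lowered plateau genes. Leaving out genes under a mean signal of 5, or the trend on the mean signal, left 0 called higher and 0 raised onward genes. The filter on signal took out Adgrf4 (mean signal 4.13) and Lum (3.65) themselves, so of the 3 only Gja3 was tested under it (limma adjusted p = 0.0613). Unadjusted counts are in the report. Without the run term (no replicate block) 2 genes were called, Adgrf4 and Gja3, and 148 genes were on a plateau, 144 of them shared. A band of -1 to 1 put 239 raised and 357 lowered genes on a plateau, and no minimum on the high-dose change gave 2622 raised and 2953 lowered responders with 1692 and 2062 on a plateau. Over leave-one-out fits, called higher ranged from 0 to 119, called lower from 0 to 293, raised onward from 0 to 63, lowered onward from 0 to 104, raised plateau genes from 25 to 92, lowered plateau genes from 37 to 154 and genes that turned back from 0 to 3. The low ends for calls came without methanol replicate 1, 300 ng/ml replicate 2 or 100 ng/ml replicate 2, and the high ends without 100 ng/ml replicate 1. The fit of BMP4 arrays alone has no controls and so gave calls but no classes. Without methanol replicate 1 no gene was called. Of the values of named genes, 401 kept their direction and side of the threshold, 26 came to pass, 15 no longer passed and 33 took the other sign. The sign changes fell on 15 of the 16 named plateau genes, whose steps lie near 0, and the cause was not tested. With a labelling term the steps became 0.0229 (Adamtsl4), 0.2666 (Cxcl12), -0.0449 (Sntb1), 0.1480 (Myh1), 0.0907 (Csrp3), 0.1068 (Lmod3), 0.0770 (Ankrd23) and 0.0788 (Gbp8), and with the mean of a gene's probe sets -0.0058 (Prelp). Leaving out 1 array at 300 or 100 ng/ml gave ranges of -0.0237 to 0.4314 for Prelp, -0.0620 to 0.3523 for Fxyd1, -0.1290 to 0.0726 for Lpar4, -0.3624 to 0.1606 for Adamtsl4, -0.2304 to 0.3495 for Gpc6, -0.2961 to 0.2666 for Cxcl12, -0.0581 to 0.1055 for Cacng7 and -0.4206 to 0.1964 for Scara3. For lowered genes they were -0.0449 to 0.1361 for Sntb1, -0.2773 to 0.1480 for Myh1, -0.2576 to 0.0350 for Tnnc2, -0.3176 to 0.0907 for Csrp3, -0.2315 to 0.1819 for Lmod3, -0.1534 to 0.0945 for Ankrd23 and -0.2182 to 0.0788 for Gbp8.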

Other observations

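Of 28 measured genes of the Notch and Wnt pathways 0 passed the test for the step, 4 were higher and 3 lower at an unadjusted p under 0.05 (2.65% and 4.08% of all genes), and the median step was -0.01. The 7 genes are named here after their values were seen. Higher were the Notch target Hey1, whose arrays overlapped, and 3 genes of Wnt inhibitors. Nkd2, an intracellular inhibitor of Dishevelled, stood at 8.44 and 8.41 at 300 ng/ml, against 7.83 and 7.33 at 100 ng/ml (step 0.84, SE 0.17, adjusted p = 0.133 by limma). Notum, which encodes a secreted enzyme that inactivates Wnt ligands, stood at 6.59 and 6.15, against 5.87 and 5.26 (adjusted p = 0.264), and Wif1, a secreted Wnt binder, at 6.53 and 5.82, against 5.68 and 5.12 (adjusted p = 0.264). Lower were the Notch target Hes1, at 8.11 and 8.11 at 300 ng/ml, against 8.33 and 9.06 at 100 ng/ml (step -0.58, adjusted p = 0.321), and the receptor genes Notch1 (step -0.50, adjusted p = 0.370) and Notch3 (step -0.44, adjusted p = 0.357).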
